A study of Mus musculus with 20 samples.

Results

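The proteasome genes were taken as all protein-coding genes in the 2 deposited count tables whose symbols start with Psma, Psmb, Psmc, Psmd, Psme, Psmf or Psmg. This gave 51 of the 56748 genes listed in each table, of which 21970 are protein-coding. By their known roles, 5 are inducible (Psmb8, Psmb9, Psmb10, Psme1 and Psme2) and 31 are constitutive subunits of the 26S proteasome. The constitutive members are 7 alpha-ring subunits, 7 beta-ring subunits, 6 ATPases of the regulatory particle base and 11 non-ATPase subunits. A further 11 are accessory members, namely activators, an inhibitor and assembly chaperones, and 2 encode tissue forms of the core particle, Psma8 in testis and Psmb11 in thymus. The remaining 2, Psmc3ip and Psme3ip1, encode proteins named for a partner and are not subunits. The tests took in 50 members of each experiment, those with 10 or more counts summed over its libraries; the exception in both was Psmb11, with at most 0.0976 CPM in any library.

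The 26S proteasome degrades ubiquitin-tagged proteins inside a barrel of stacked alpha and beta rings, which a regulatory particle caps, unfolds substrates for and feeds. Interferon signalling and infection replace the catalytic beta subunits with inducible ones, Psmb6 with Psmb9, Psmb7 with Psmb10 and Psmb5 with Psmb8, to form the immunoproteasome, and raise the PA28 activator built from Psme1 and Psme2. In macrophages and other antigen-presenting cells the immunoproteasome is known for cutting proteins into peptides that the Tap1/Tap2 transporter carries to class I molecules.

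Transcripts were measured by poly(A) RNA-seq in the classical activation model, in which LPS and IFNγ induce iNOS (Nos2) and thereby nitric oxide (NO•). One table held 12 libraries, 3 each of unstimulated and stimulated wildtype (WT) and iNOS KO cells; the labels call them bone marrow-derived macrophages (BMDM) from C57BL/6J mice aged 6 to 12 weeks, grown with 20 ng/mL M-CSF, whereas the methods of the study describe RAW264.7 cells for this experiment. They are called the BMDM-labelled libraries here. The other table held 8 libraries of RAW264.7, a mouse macrophage-like line, 2 each of unstimulated and stimulated WT and Akr1a1 KO cells, with the knockout made by CRISPR-Cas9 and the replicates being separate clones; AKR1A1 is the reductase whose role in NO• metabolism the study followed. Stimulated cells received 50 ng/mL LPS with IFNγ for 48 h, at 30 ng/mL for BMDM and 10 ng/mL for RAW264.7 cells, and unstimulated cells received neither agent. The methods of the study name the iNOS KO mice as B6.129P2-Nos2tm1Lau/J and give an age of 8 to 12 weeks for BMDM donors. The part of strain background in the genotype differences was not tested. The methods also state that BMDM marrow was pooled by genotype and call the 3 libraries per group biological replicates. Since pooled marrow does not separate animals, p-values there measure the spread between these libraries, which may be that of cultures.

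Depth was 15072109 to 18878107 counts per library in the BMDM-labelled set and 11876719 to 44583327 in RAW264.7 cells. CPM, the read count scaled to depth, used library sizes multiplied by TMM factors, and a gene was called when its Benjamini-Hochberg adjusted p in edgeR's quasi-likelihood test, fitted over 18691 and 19569 genes, was under 0.05. Nos2 was at 10370.2, 11533 and 11313 CPM in stimulated WT libraries and at 870.5, 891 and 912 CPM in stimulated iNOS KO libraries. Akr1a1 was at 427 and 488 CPM in unstimulated WT and at 206 and 21.8 CPM in unstimulated Akr1a1 KO RAW264.7 cells; the groups did not overlap, and the difference was not called (log2 fold change -2.01, edgeR BH-adjusted p = 0.560). In 2 of the 20 libraries, the unstimulated replicate B of both RAW264.7 genotypes, the title says stimulated and the treatment field unstimulated; they were grouped by the treatment field, and Nos2 was at 30.7 and 38.1 CPM in them against 4155 to 8806 CPM in the 4 stimulated libraries. Stimulated iNOS KO replicate B stood apart, with a chi-square per degree of freedom of 28.8 and 36.8 against replicates A and C, where the other pairs of the BMDM-labelled libraries gave at most 7.74. Of 7 macrophage markers all were at 1 CPM or more in the BMDM-labelled libraries and 6 in RAW264.7 cells, and no T or B cell marker reached 1 CPM. Of 6 neutrophil markers only S100a8 reached 1 CPM, and the sum of the list lay between 0.433 and 1.11 CPM in the 6 BMDM-labelled libraries without stimulation and between 34.7 and 61.2 CPM in the 6 with it. Of 5 fibroblast markers only Dcn reached 1 CPM there, and their sum was 0 to 0.293 CPM without stimulation, 3.58 to 4.92 CPM in stimulated WT and 10.4 to 15.8 CPM in stimulated iNOS KO libraries, with Col3a1 at 0 in all 12. These sums moved with stimulation, as did the members described next. Of 4 dendritic cell markers 1 reached 1 CPM in the BMDM-labelled libraries. Their sum was 1.11 to 1.53 CPM without and 0.900 to 1.59 CPM with stimulation in WT libraries. In iNOS KO libraries it was 1.09 to 1.78 CPM without and 2.38 to 3.70 CPM with stimulation. The part of these marker lists in the results was not tested.

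Upon stimulation all 5 inducible members rose in both genotypes of both experiments, and their place in the order of subunit levels moved up. Among the 50 members tested in WT BMDM-labelled libraries, 22 rose and 18 fell (80.0% called), against 60.9% of all genes tested, 32.4% higher and 28.5% lower. In bulk RNA a change per cell and a change in the share of a cell type cannot be told apart.

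The largest log2 fold change of any subunit in WT libraries was that of Psmb9. This gene (ENSMUSG00000096727, chromosome 17, 34400961 to 34406738 as the table lists it), which encodes the inducible form of the caspase-like subunit, was at 12.3, 10.7 and 12.4 CPM in unstimulated WT libraries and at 166, 179 and 189.8 CPM in stimulated ones. The iNOS KO libraries held 9.20, 10.7 and 9.51 CPM of it without and 208, 241 and 208 CPM with stimulation. Stimulated and unstimulated libraries were far apart in both genotypes, and every stimulated iNOS KO library was above every stimulated WT library. The log2 fold change was 3.91 ± 0.096 (SE, n = 3 per group) in WT and 4.48 ± 0.098 in iNOS KO libraries (edgeR BH-adjusted p = 1.36e-15 and 4.85e-16). The listed Psmb9 gene shares 212 bases with Tap1 on the other strand; Tap1 reached 1095 CPM, and whether counting used strand is not stated.

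Psmb8 (ENSMUSG00000024338, chromosome 17, 34416695 to 34420428), the inducible chymotrypsin-like subunit, was at 41.2, 39.2 and 42.5 CPM in unstimulated and 217, 238 and 242 CPM in stimulated WT libraries. The iNOS KO libraries held 35.9, 38.5 and 39.7 CPM before and 344, 412 and 338 CPM after stimulation. The unstimulated genotypes overlapped, and the stimulated ones did not, with replicate B of the iNOS KO the highest. This was a rise of 2.50 ± 0.085 in WT and 3.26 ± 0.087 in iNOS KO libraries on the log2 scale (edgeR BH-adjusted p = 8.59e-14 and 5.88e-15).

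Psmb10 (ENSMUSG00000031897, chromosome 8, 106662367 to 106665076), the inducible trypsin-like subunit, was at 35.1, 32.1 and 34.0 CPM in unstimulated WT libraries and 234, 253 and 265.0 CPM after stimulation. In the iNOS KO it was at 24.2, 27.6 and 26.2 CPM and rose to 366, 425 and 354 CPM. It was the only inducible member whose unstimulated level was called lower in iNOS KO than in WT cells (log2 fold change -0.38 ± 0.085, edgeR BH-adjusted p = 0.0114), and that call was lost without WT unstimulated replicate A or C or iNOS KO unstimulated replicate A (adjusted p = 0.0672, 0.0518 and 0.0805). Its response was 2.89 ± 0.086 in WT and 3.88 ± 0.089 in iNOS KO cells on the log2 scale.

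The 2 inducible PA28 activator subunits followed the same order of groups. Psme1 (ENSMUSG00000022216, chromosome 14, 55815580 to 55818986), the alpha chain, was at 63.3, 61.5 and 64.9 CPM in unstimulated WT, 236, 259.8 and 266 CPM in stimulated WT and 415, 468 and 415 CPM in stimulated iNOS KO libraries. Its log2 response was 2.01 ± 0.075 in WT and 2.88 ± 0.077 in iNOS KO libraries (edgeR BH-adjusted p = 3.27e-13 and 6.34e-15). Psme2 (ENSMUSG00000079197, chromosome 14, 55824898 to 55828570), the beta chain, was at 26.0, 32.9 and 49.4 CPM in unstimulated WT and 292, 296 and 333 CPM in stimulated WT libraries. The unstimulated libraries spread more for Psme2 than for the other inducible members, and its log2 response was 3.09 ± 0.18 in WT and 3.55 ± 0.18 in iNOS KO libraries, where it reached 421, 459 and 414 CPM (edgeR BH-adjusted p = 8.86e-11 and 3.16e-11).

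Psme2b is named as a copy of Psme2 and may share reads with it, so both values are uncertain. All 837 listed bases of Psme2b also lie within Gm12185 on the same strand, which reached 101 CPM in the BMDM-labelled libraries. How reads in that overlap were counted is not stated. Psme2b was at 43.3, 37.6 and 29.9 CPM in unstimulated WT and 33.9, 32.5 and 24.2 CPM in unstimulated iNOS KO libraries, where Psme2 was at 31.9, 33.5 and 44.9 CPM. In both unstimulated groups the order of the 3 libraries for Psme2b was the reverse of that for Psme2. After stimulation Psme2b rose to 120.0, 155 and 149 CPM in WT and 186, 180.4 and 169 CPM in iNOS KO libraries.

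**Figure D1:**
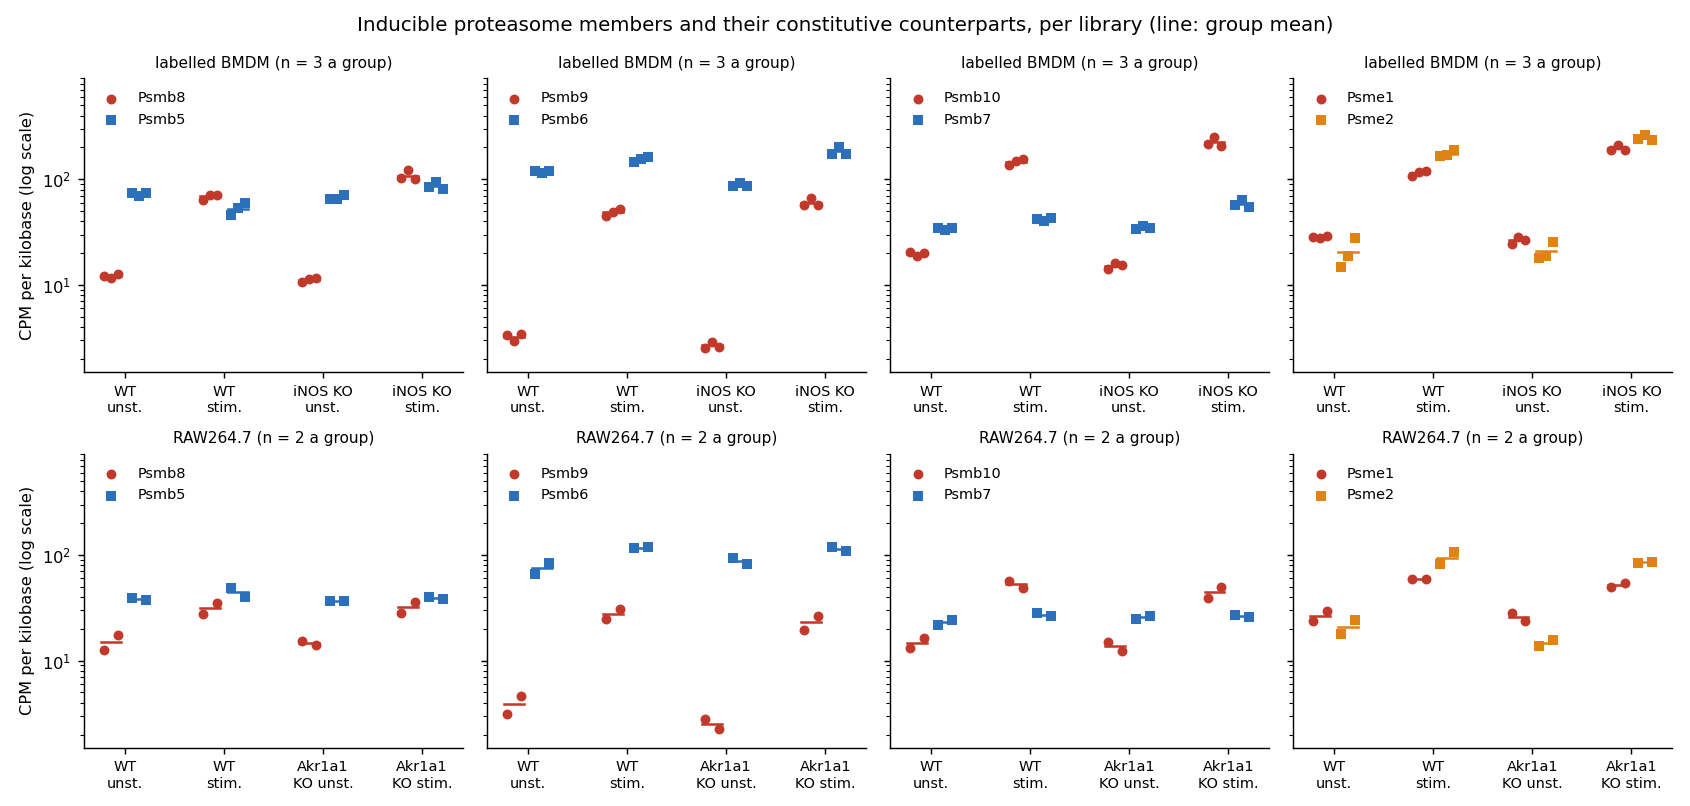
Levels in CPM per kilobase of listed gene length (log axis) of the 3 inducible catalytic subunits beside their constitutive counterparts and of Psme1 and Psme2, 1 point per library, in the BMDM-labelled and the RAW264.7 libraries. Each inducible catalytic subunit lies below its counterpart in unstimulated libraries, with Psmb9 at a mean of 3.23 in WT BMDM-labelled libraries. After stimulation Psmb10 is above Psmb7 in both experiments and Psmb8 above Psmb5 in the BMDM-labelled libraries alone, while Psmb9 stays below Psmb6.

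Per kilobase of gene length the inducible members changed place among the 36 subunits. In unstimulated WT BMDM-labelled libraries the 5 had a median of 19.8 CPM per kb and the 31 constitutive members 55.7, with Psmb9, Psmb8, Psmb10 and Psme2 in the places 36, 35, 34 and 33 from the top and Psme1 in place 26. In stimulated WT libraries the inducible median was 115 and the constitutive median 42.9 CPM per kb; Psme2 was in place 2, Psmb10 in place 5, Psme1 in place 9, Psmb8 in place 12 and Psmb9 in place 19. In stimulated iNOS KO libraries the medians were 195.8 and 73.0 CPM per kb, and the places of the 5, in the same order, were 2, 3, 5, 13 and 23.

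The ratio of each inducible catalytic subunit to its counterpart, both in CPM per kb, does not depend on library scaling. Psmb8/Psmb5 was 0.167 ± 0.00193 (SD, n = 3) in unstimulated and 1.31 ± 0.103 in stimulated WT libraries, and 0.168 ± 0.00513 and 1.25 ± 0.0572 in iNOS KO libraries. Psmb9/Psmb6 was 0.0273 ± 0.00173 and 0.314 ± 0.00227 in WT and 0.0301 ± 0.00134 and 0.327 ± 0.000647 in iNOS KO libraries. The ratios rose 7.87-fold and 11.5-fold in WT and 7.45-fold and 10.8-fold in iNOS KO libraries, and the stimulated genotypes overlapped for Psmb8/Psmb5 but not for Psmb9/Psmb6, where the ranges were 0.312 to 0.316 and 0.326 to 0.327. Psmb10/Psmb7 went from 0.583 ± 0.0116 to 3.55 ± 0.220 in WT, a 6.09-fold rise, and from 0.439 ± 0.0168 to 3.83 ± 0.0899 in iNOS KO libraries, an 8.73-fold rise from a lower start. The stimulated iNOS KO ratio was 0.951, 1.04 and 1.08 times the WT ratio for Psmb8/Psmb5, Psmb9/Psmb6 and Psmb10/Psmb7. The ratios were described and not tested; Psmb7 overlaps Nek6, which reached 111 CPM, by 6571 bases on the other strand.

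**Figure D2:**
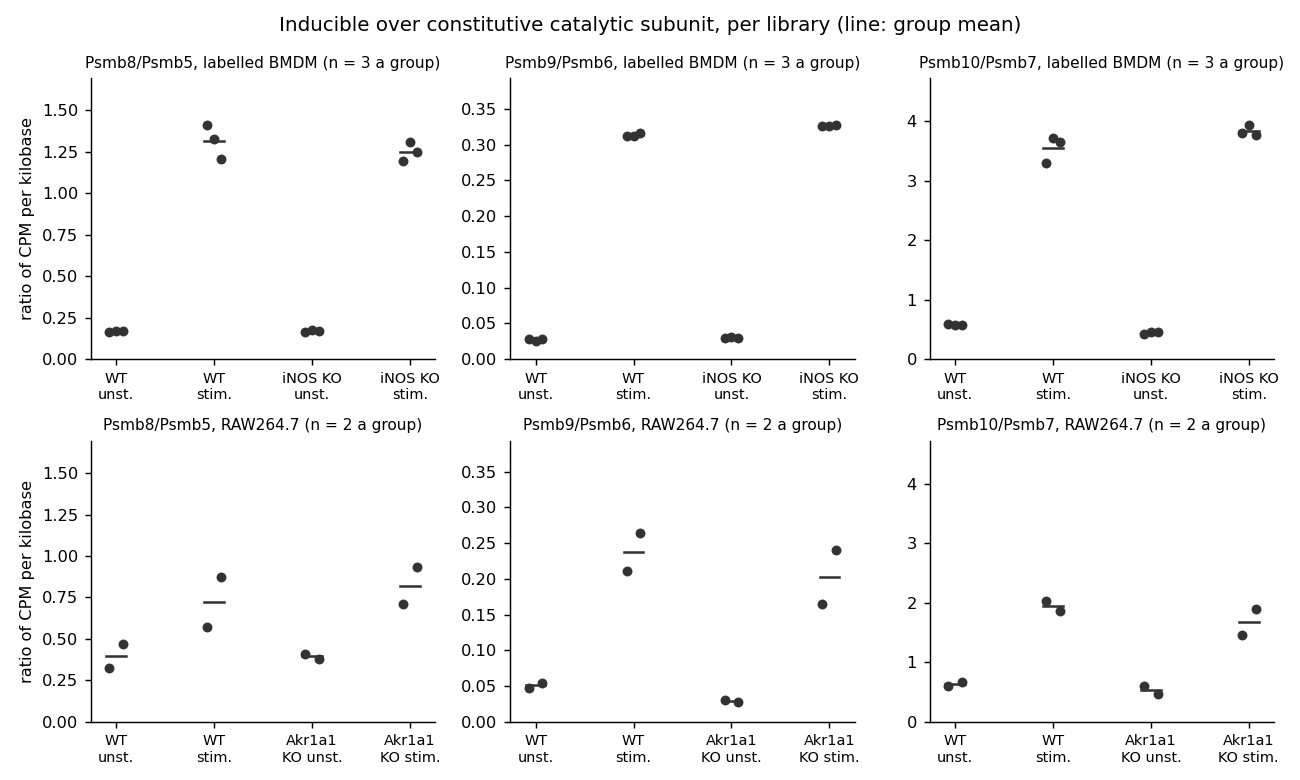
Ratio of inducible to constitutive catalytic subunit (CPM per kb over CPM per kb, linear axis from 0) per library for Psmb8/Psmb5, Psmb9/Psmb6 and Psmb10/Psmb7 in the BMDM-labelled and the RAW264.7 libraries. Stimulated iNOS KO and WT means differ by 0.951 to 1.08 times, while stimulation moves the BMDM-labelled ratios 6.09-fold to 11.5-fold.

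To show the regions upstream of these genes, RefSeq windows on GRCm38.p6 of 300 bases, 250 before and 50 after the annotated start, were matched by symbol for 43 of the 51 members, among them all 5 inducible ones. Both strands were searched for the interferon-stimulated response element (ISRE, GAAANNGAAA), the gamma-activated site (GAS, TTCNNNGAA) and the antioxidant response element (ARE, TGACNNNGC), the site of the NRF1 and NRF2 factors. The share of all 32851 windows that held a match was 3.44% for ISRE, 8.30% for GAS and 12.4% for ARE. The 4 windows below are a selection, from 3 of the 5 inducible members and 1 constitutive counterpart. Of those left out, Psmb10 and Psme2 held no match of the 3 motifs, and Psmb5 held an ARE match. Capitals mark the match, which is GAS in Psmb8 (chr17:34197945-34198244, + strand), ISRE read on the opposite strand in Psme1 (chr14:55578244-55578543, + strand) and ARE in Psmb6 (chr11:70525107-70525406, + strand). Psmb9 (chr17:34187281-34187580, - strand) held no match of the 3 motifs, and 275 of its bases are shared with the window of Tap1 (chr17:34187306-34187605, + strand).
Psmb8: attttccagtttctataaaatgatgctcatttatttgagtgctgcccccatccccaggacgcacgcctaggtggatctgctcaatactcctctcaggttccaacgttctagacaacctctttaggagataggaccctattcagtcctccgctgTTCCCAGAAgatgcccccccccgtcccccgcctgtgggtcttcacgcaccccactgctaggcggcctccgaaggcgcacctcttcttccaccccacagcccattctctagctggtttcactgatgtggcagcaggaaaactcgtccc
Psmb9: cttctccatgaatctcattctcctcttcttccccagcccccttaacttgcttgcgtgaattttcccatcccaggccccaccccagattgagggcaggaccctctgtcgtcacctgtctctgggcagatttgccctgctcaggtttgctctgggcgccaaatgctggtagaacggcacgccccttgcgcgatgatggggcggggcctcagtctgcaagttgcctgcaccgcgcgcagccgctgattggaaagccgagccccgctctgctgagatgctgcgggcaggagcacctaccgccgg
Psme1: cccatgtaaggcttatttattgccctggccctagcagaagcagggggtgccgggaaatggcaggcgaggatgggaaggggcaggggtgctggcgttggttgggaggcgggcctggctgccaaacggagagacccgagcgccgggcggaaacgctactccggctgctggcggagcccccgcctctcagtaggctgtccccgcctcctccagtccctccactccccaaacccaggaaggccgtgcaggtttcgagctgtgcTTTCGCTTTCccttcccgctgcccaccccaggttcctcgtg
Psmb6: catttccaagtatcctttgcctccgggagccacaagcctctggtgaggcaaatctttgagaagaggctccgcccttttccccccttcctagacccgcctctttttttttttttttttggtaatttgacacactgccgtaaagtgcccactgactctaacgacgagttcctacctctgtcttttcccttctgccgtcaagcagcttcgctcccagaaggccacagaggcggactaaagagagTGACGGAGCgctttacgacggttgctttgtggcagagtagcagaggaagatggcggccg
A GAS match was found in 1 of the 5 inducible and 1 of the 25 constitutive members with a window, an ISRE match in 1 of 5 and 2 of 25, and an ARE match in 0 of 5 and 4 of 25 (Psmb5, Psmb6, Psmc6 and Psmd12). A match is a description of the letters, not a bound site.

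In contrast to the inducible members, the constitutive subunits split in direction upon stimulation in WT libraries and rose almost together in iNOS KO libraries. In WT BMDM-labelled libraries 11 of the 31 rose and 10 fell, around a median of 0.020 on the log2 scale (range -0.81 to 1.10), where the median over all genes tested was 0.071. The share called was 67.7%, against 60.9% of all genes. In iNOS KO libraries 29 rose and none fell, with a median of 0.53 (range -0.034 to 1.09), against a median of -0.00032 over all genes; among the 50 members 40 rose and 3 fell (86.0% called), against 51.9% of all genes, 27.3% higher and 24.6% lower. Of the 31, 11 rose in both genotypes, 9 fell in WT and rose in iNOS KO, 9 were not called in WT and rose in iNOS KO, Psmd6 fell in WT and was not called in iNOS KO, and Psmc6 was called in neither.

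The split in WT and the shared rise in iNOS KO libraries both depended on the scaling. Scaled by library totals in place of TMM, the median of all genes moved by -0.46 in the WT and by -0.41 in the iNOS KO response, and 2 constitutive members rose and 26 fell in WT, with 14 higher and 3 lower in iNOS KO libraries. Under the same scaling 21.6% of all genes were called higher and 42.0% lower in WT and 16.5% higher and 42.1% lower in iNOS KO libraries, and the medians of the constitutive members and of all genes in WT were -0.44 and -0.39. With library totals 8 called constitutive members changed sign in the WT response (Psma2, Psma5, Psma6, Psmb4, Psmb6, Psmb7, Psmc2 and Psmd13) and 8 in the iNOS KO response (Psma1, Psmb5, Psmc1, Psmc3, Psmd1, Psmd2, Psmd12 and Psmd14), and none of the 5 inducible members did. Directions of constitutive members upon stimulation are therefore relative to the other genes, and each one named in these 2 lists reverses with library totals. Members outside the lists can lose their call too, since 29 were higher in iNOS KO libraries with TMM and 14 with library totals. The responses given below are with TMM.

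The difference between the genotypes was called with both scalings. In the test of the interaction, the response in iNOS KO minus that in WT, 39 of the 50 members were higher and 1 was lower (80.0% called), against 35.4% of all genes, 20.0% higher and 15.4% lower. For the 31 constitutive members 27 were higher and none lower with TMM, with a median of 0.59 against -0.018 over all genes, and the same counts were found with library totals. Psmb8, Psmb9, Psmb10 and Psme1 had a larger response in iNOS KO libraries, by 0.76, 0.57, 0.98 and 0.88 on the log2 scale (edgeR BH-adjusted p = 5.56e-05, 0.00210, 3.49e-06 and 3.62e-06). For Psme2 the difference was 0.46 and not called (edgeR BH-adjusted p = 0.150); without WT unstimulated replicate A, its lowest library, it was 0.65 and called (adjusted p = 0.0233).

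**Figure D3:**
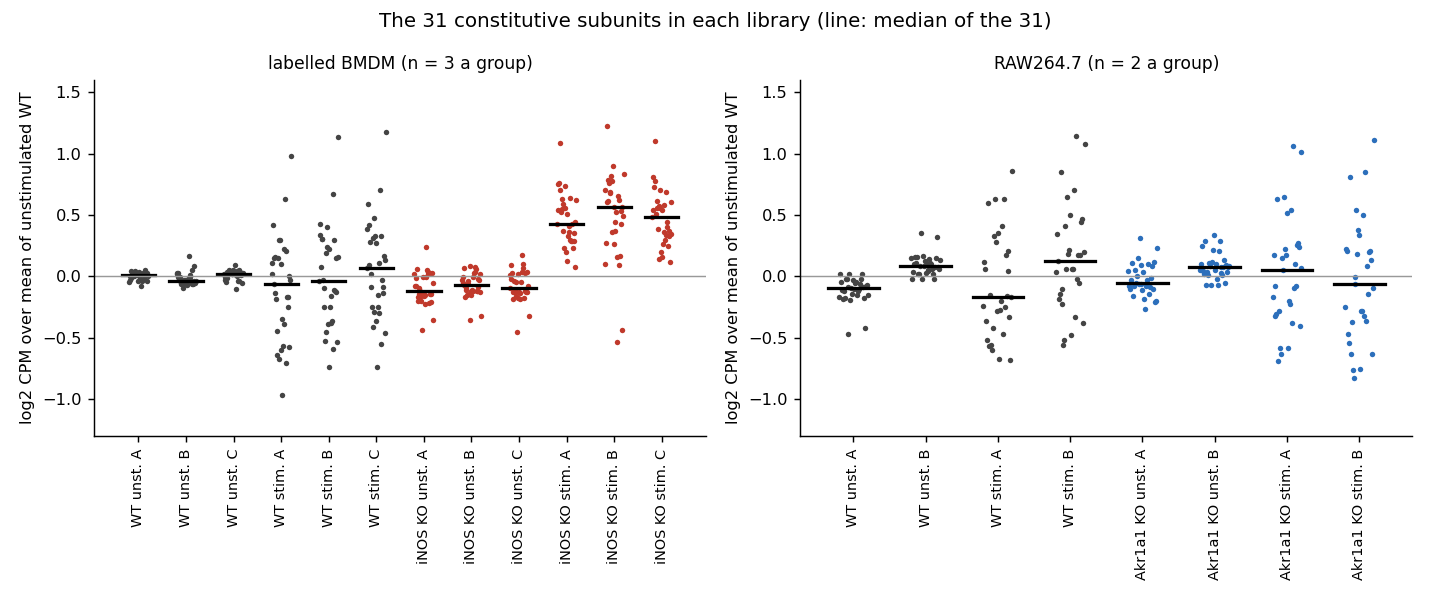
Log2 of the CPM of the 31 constitutive subunits in each library over the mean of the unstimulated WT libraries of the same table, 1 point per gene, with the median of the 31 marked. Medians lie between -0.062 and 0.071 in stimulated WT and between 0.43 and 0.57 in stimulated iNOS KO BMDM-labelled libraries; with library totals the constitutive median of the WT response is -0.44 and that of the iNOS KO response 0.12.

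The direct comparison of stimulated iNOS KO with stimulated WT libraries gave the same picture. Of the 50 members 40 were higher and 2 lower in iNOS KO (84.0% called), against 48.4% of all genes, 24.2% in each direction. All 5 inducible members were higher, with a median log2 fold change of 0.61 (range 0.30 to 0.77), and 27 of the 31 constitutive members were higher and 1 lower, with a median of 0.48, where the median of all genes was -0.044. The call for Psme2 (log2 fold change 0.49 ± 0.16, edgeR BH-adjusted p = 0.0180) was lost without WT stimulated replicate A or B (adjusted p = 0.0664 and 0.0606). Without iNOS KO stimulated replicate B, 41 members were higher and 2 lower. With a log2 fold change of more than 1 required in addition, 4 of the 50 were called, against 19.6% of all genes; by the same rule 10 were called in the WT response (35.4% of all genes), 9 in the iNOS KO response (22.8%), none without stimulation (1.66%) and 7 in the interaction (15.0%).

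In the core particle the alpha-ring subunits, which form the gate, included none that was called lower in either genotype with TMM. This does not hold with library totals, where 26 of the 31 constitutive members were lower in WT. In WT libraries 4 of 7 rose with TMM, Psma2, Psma3, Psma5 and Psma6, and Psma2, Psma5 and Psma6 reversed with library totals. In iNOS KO libraries all 7 rose, Psma1 reversing with library totals. The share called was 57.1% in WT, below the 60.9% of all genes, and 100% in iNOS KO libraries, against 51.9%. Psma5 was at 145, 145 and 150.3 CPM in unstimulated WT, 163, 181 and 197 CPM in stimulated WT and 312, 342 and 315 CPM in stimulated iNOS KO libraries. Its stimulated iNOS KO libraries lay above all others, and its log2 fold change of 1.09 ± 0.07 in iNOS KO was the largest of the constitutive members (edgeR BH-adjusted p = 8.40e-10). With TMM Psma3 rose in both genotypes, by 0.48 ± 0.08 and 0.43 ± 0.079 on the log2 scale. Library totals moved the median of all genes by -0.46 and -0.41 in these responses. The stimulated genotypes overlapped for Psma3, and its interaction of -0.046 ± 0.11 was not called (edgeR BH-adjusted p = 0.808). For Psma1 the responses were 0.02, not called, and 0.35, and their difference of 0.33 (edgeR BH-adjusted p = 0.0355) was lost when any 1 of 9 libraries was left out, with adjusted p from 0.0576 to 0.129; it was kept without WT unstimulated replicate A, WT stimulated replicate C or iNOS KO stimulated replicate B.

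Among the beta-ring subunits, 3 fell in WT libraries (Psmb2, Psmb3 and Psmb5) and 3 rose (Psmb4, Psmb6 and Psmb7, each of which reversed with library totals), while all 7 rose in iNOS KO libraries, Psmb5 reversing there. Called were 85.7% in WT and 100% in iNOS KO libraries, against 60.9% and 51.9% of all genes. Psmb5, the constitutive chymotrypsin-like subunit, was at 66.3, 62.5 and 66.9 CPM in unstimulated WT and 40.9, 47.7 and 53.4 CPM in stimulated WT libraries. The corresponding iNOS KO libraries were at 58.4, 59.1 and 63.3 CPM before and 76.7, 83.9 and 72.0 CPM after stimulation. Stimulated WT libraries were thus the lowest and stimulated iNOS KO libraries the highest of the 4 groups. The interaction was 0.83 ± 0.13 on the log2 scale (edgeR BH-adjusted p = 6.36e-05).

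Psmb6, the constitutive caspase-like subunit, was at 223, 216 and 224 CPM in unstimulated WT and 163, 173 and 162 CPM in unstimulated iNOS KO libraries, which did not overlap. After stimulation it was at 271, 292 and 307 CPM in WT and 326, 378 and 326 CPM in iNOS KO libraries. The lower level without stimulation was called (log2 fold change -0.41 ± 0.07, edgeR BH-adjusted p = 0.00124), as was the higher level with it (0.24 ± 0.07, adjusted p = 0.00857). Psmb7, the constitutive trypsin-like subunit, was at 112 to 118 CPM in unstimulated WT, 137 to 146 CPM in stimulated WT and 189 to 217 CPM in stimulated iNOS KO libraries. The non-catalytic Psmb2 held 108 to 113 CPM in unstimulated WT, 81.6 to 93.6 CPM in stimulated WT and 169.6 to 178 CPM in stimulated iNOS KO libraries, and Psmb3 followed the same order.

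In the regulatory particle, the base ATPases, which unfold substrates, fell more often than they rose in WT libraries: 4 of 6 fell (Psmc1, Psmc3, Psmc4 and Psmc5) and Psmc2 rose, the latter reversing with library totals. In iNOS KO libraries 5 of 6 rose, with Psmc1 and Psmc3 reversing with library totals. Called were 83.3% in each genotype, against 60.9% of all genes in WT and 51.9% in iNOS KO libraries. Psmc3 fell most of the constitutive members in WT, from 179.6, 168 and 178 CPM to 89.7, 105 and 105 CPM. Its iNOS KO levels were 157, 162 and 154 CPM without and 191, 226 and 196 CPM with stimulation. The stimulated WT libraries were apart from the other 9, and the interaction was 1.18 ± 0.11 on the log2 scale (edgeR BH-adjusted p = 2.51e-07). Psmc3 overlaps Slc39a13, which reached 50.9 CPM in these libraries, by 4579 bases on the other strand.

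Psmc6, another of the ATPases, was uneven across replicates. It was at 79.0, 93.0 and 77.3 CPM in unstimulated WT, 96.8, 74.5 and 89.8 CPM in stimulated WT and 107, 57.5 and 125 CPM in stimulated iNOS KO libraries. Replicate B of the stimulated iNOS KO was the lowest of all libraries, at a log2 ratio of -1.01 to the mean of replicates A and C. Psme4 and Psmd6 were also low there (-0.86 and -0.53), while 35 of the 50 members were higher in that library than in the mean of the other two, and the median over the 50 was 0.14. Without this library 42 members rose and 5 fell in the iNOS KO response, with 30 of the 31 constitutive members higher.

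Of the 11 non-ATPase subunits, 3 rose in WT (Psmd8, Psmd11 and Psmd13, the last reversing with library totals), 3 fell (Psmd1, Psmd6 and Psmd12) and 5 were not called. In iNOS KO libraries 10 of 11 rose, Psmd1, Psmd2, Psmd12 and Psmd14 reversing with library totals. The share called was 54.5% in WT, below the 60.9% of all genes, and 90.9% in iNOS KO libraries, against 51.9%. Psmd8, a subunit of the lid, was the exception to the general order of the groups. It was at 300.1, 291 and 305 CPM in unstimulated WT and 591, 656 and 675 CPM in stimulated WT libraries. In iNOS KO libraries it was at 234, 239 and 239 CPM before and 461, 531 and 454 CPM after stimulation. Its level was lower in iNOS KO than in WT libraries in both states, without overlap (log2 fold change -0.33 ± 0.069 without and -0.41 ± 0.069 with stimulation, edgeR BH-adjusted p = 0.00634 and 9.07e-05), and its response of 1.10 in WT and 1.02 in iNOS KO was not called different (interaction -0.077, adjusted p = 0.598). No other constitutive member was called lower in the iNOS KO after stimulation.

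Psmd11, another lid subunit, rose by 0.67 ± 0.056 in WT and 0.60 ± 0.056 in iNOS KO libraries on the log2 scale, and its stimulated genotypes overlapped at 245 to 258 and 247 to 255 CPM. Psmd12, also of the lid, went from 105 to 109.8 CPM to 66.1 to 73.6 CPM in WT and to 115 to 136 CPM in stimulated iNOS KO libraries. Psmd2, the scaffold of the base, had the most counts of the members in unstimulated libraries, at 510.5 to 546 CPM in WT, and after stimulation it was at 473 to 501 CPM in WT and 624 to 716 CPM in iNOS KO libraries. Psmd7 was not called in WT (0.087) and with TMM rose by 0.46 in iNOS KO libraries.

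The accessory members moved in both directions: in WT libraries 5 of 11 rose and 6 fell, and in iNOS KO libraries 5 rose and 3 fell. Called were 100% in WT and 72.7% in iNOS KO libraries, against 60.9% and 51.9% of all genes. The 4 core assembly chaperones, Psmg1 to Psmg4, all fell in WT libraries (median log2 fold change -0.82). Psmg1 was at 37.4, 31.5 and 34.6 CPM in unstimulated and 9.42, 8.64 and 9.43 CPM in stimulated WT libraries. In iNOS KO libraries it was at 33.1, 36.9 and 32.4 CPM before and 20.2, 22.4 and 19.9 CPM after stimulation, so it fell in both genotypes and less in iNOS KO. The log2 fold changes were -1.91 ± 0.10 and -0.71 ± 0.092, and the interaction was 1.20 ± 0.14 (edgeR BH-adjusted p = 2.76e-11, 4.74e-06 and 2.29e-06). Its partner Psmg2 fell by 0.92 in WT and by 0.42 in iNOS KO libraries. Psmg4 fell in WT, from 23.9, 22.5 and 23.2 to 12.3, 16.3 and 13.8 CPM, and rose in iNOS KO, from 17.3, 17.2 and 16.9 to 20.4, 24.4 and 22.0 CPM, the latter change reversing with library totals.

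Among the other activators, Psme3 (PA28gamma, the nuclear activator) fell, from 203 to 214 CPM to 129 to 133 CPM in WT and from 202 to 211 CPM to 164 to 188 CPM in iNOS KO libraries. Psme4 (PA200) rose in WT by 0.56 ± 0.16 and was not called in iNOS KO cells (0.16 ± 0.16), where replicate B was low as given above; the difference between the responses was not called (adjusted p = 0.196). Psmf1, the inhibitor PI31, rose in both genotypes, by 0.58 and 0.68 on the log2 scale. Of the regulatory particle chaperones, Psmd10 rose by 0.71 in WT and 0.82 in iNOS KO, and Psmd9 fell by 0.44 in WT and was at 0.003 in iNOS KO libraries. Psmd5 was the only member with a called smaller response in iNOS KO, 0.47 in WT against 0.19 in iNOS KO, where it reversed with library totals. That difference of -0.28 (edgeR BH-adjusted p = 0.0212) was lost without WT unstimulated replicate B (adjusted p = 0.0619) and with no filter on counts (adjusted p = 0.104).

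**Figure D4:**
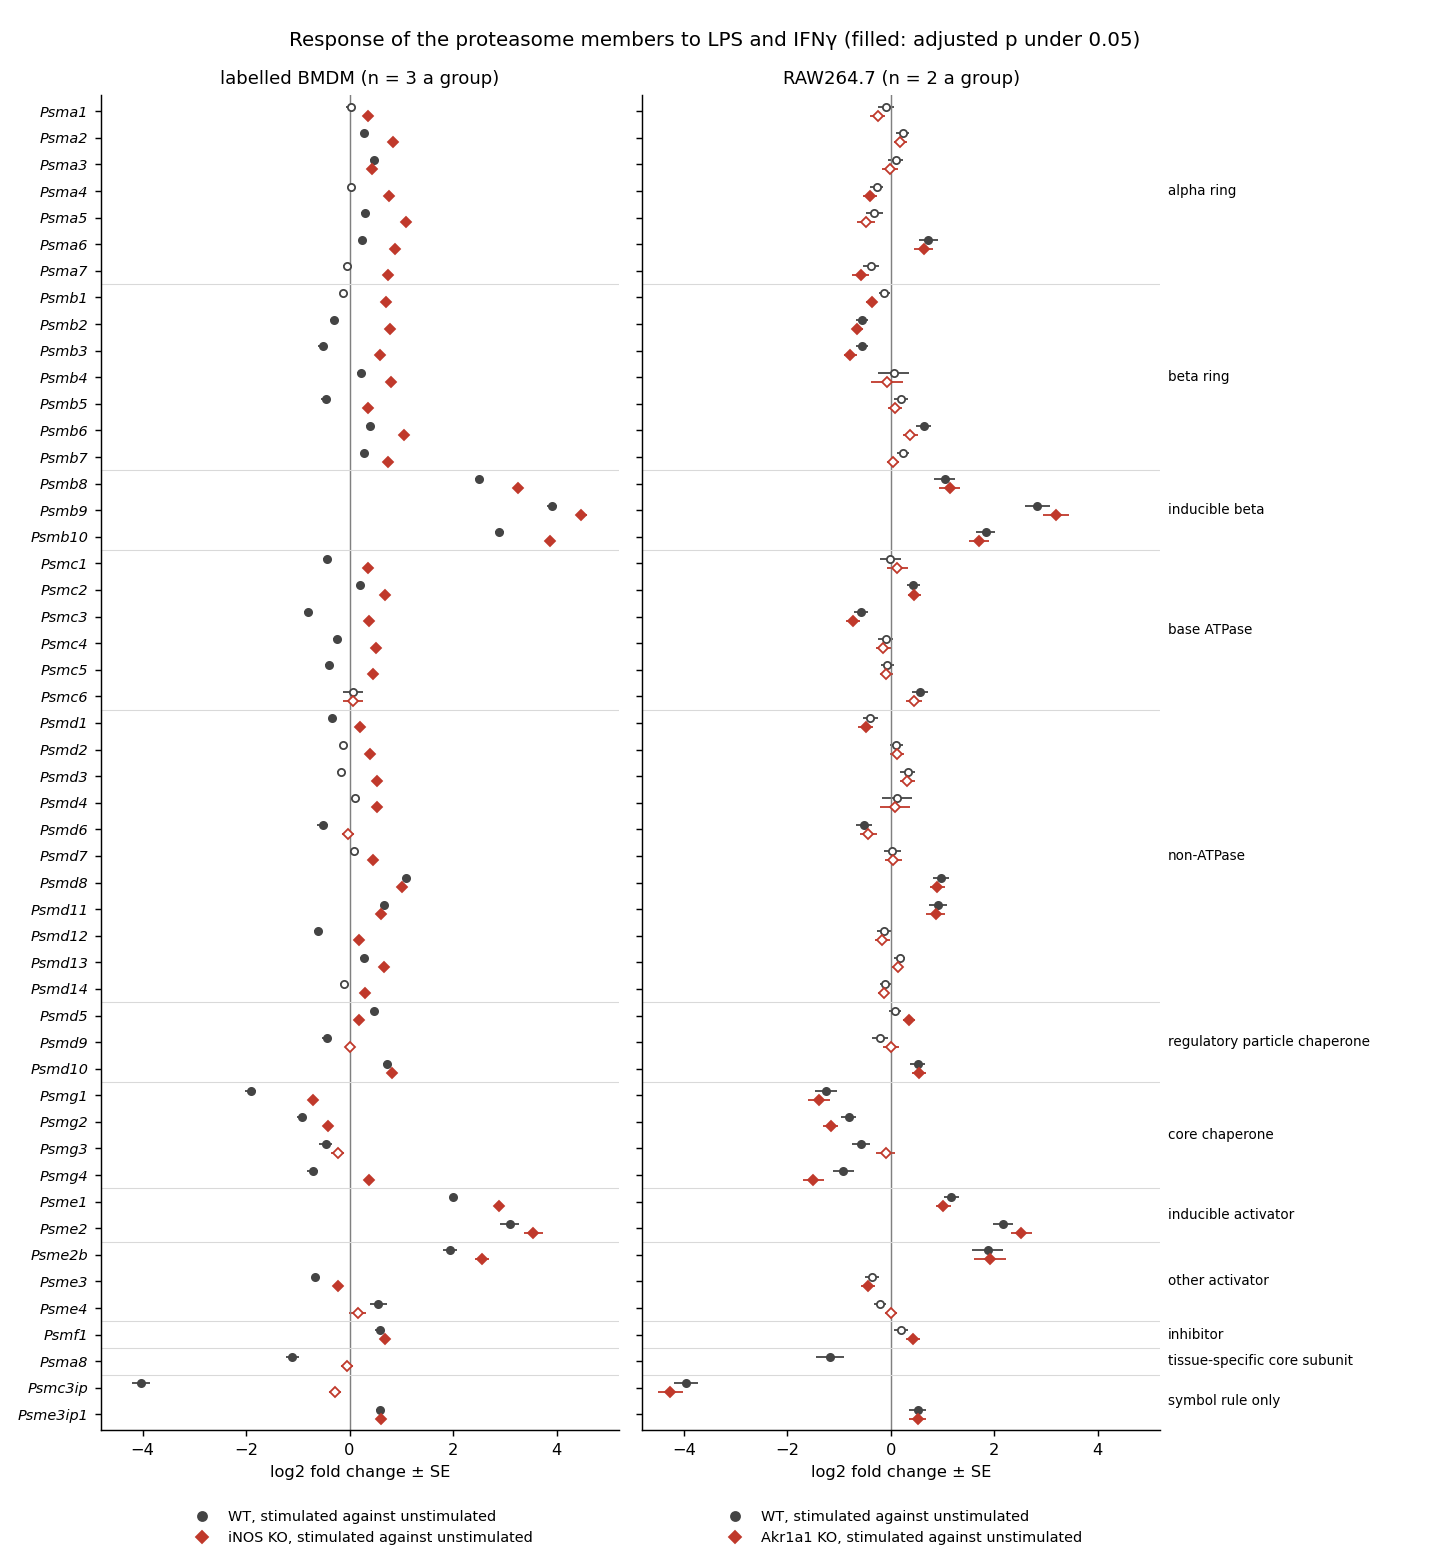
Log2 fold change upon stimulation with its standard error for the 50 members tested, in WT and in KO libraries of each experiment, ordered by role, with filled points for an adjusted p under 0.05 (TMM scaling). The 5 inducible members lie between 2.01 and 3.91 in WT BMDM-labelled libraries; with library totals 8 called constitutive members change sign in each genotype of the BMDM-labelled libraries.

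Without stimulation few members differed between iNOS KO and WT. Of 50, none was higher and 4 were lower (8.0% called), against 5.98% of all genes, 1.88% higher and 4.09% lower: Psmb6, Psmb10, Psmd8 and Psmg4, at -0.41, -0.38, -0.33 and -0.44 on the log2 scale. The count was 2 without WT unstimulated replicate A, WT unstimulated replicate C or iNOS KO unstimulated replicate A, and 7 without iNOS KO stimulated replicate B. The call for Psmg4 was lost without either of these WT replicates or any 1 of the 3 unstimulated iNOS KO replicates (adjusted p from 0.0504 to 0.0723). A share this close to that of all genes is not a result about the proteasome genes.

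In RAW264.7 cells the inducible members rose as well. In WT cells 14 of 50 members rose and 10 fell (48.0% called), against 37.7% of all genes, 18.5% higher and 19.2% lower; in Akr1a1 KO cells 14 rose and 12 fell (52.0% called), against 39.2% of all genes, 19.8% higher and 19.4% lower. The 5 inducible members rose in both genotypes, with medians of 1.83 and 1.70 on the log2 scale. Psmb9 was at 11.5 and 16.8 CPM in unstimulated WT and 90.2 and 114 CPM in stimulated WT cells, and at 10.3 and 8.28 CPM before and 71.6 and 96.8 CPM after stimulation in Akr1a1 KO cells. Unstimulated and stimulated libraries were far apart, and the stimulated genotypes overlapped. Its log2 fold changes were 2.83 ± 0.24 and 3.19 ± 0.25 (SE, n = 2 per group; edgeR BH-adjusted p = 5.98e-05 and 3.74e-05).

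Psme2 was at 31.3 and 42.9 CPM in unstimulated and 144 and 189 CPM in stimulated WT RAW264.7 cells, and at 24.0 and 27.9 CPM before and 149 and 151 CPM after stimulation in Akr1a1 KO cells. Psmb10 went from 22.3 and 28.0 CPM to 97.1 and 82.9 CPM in WT and from 25.5 and 20.9 CPM to 66.7 and 84.3 CPM in Akr1a1 KO cells. Psmb8 and Psme1 about doubled, with log2 fold changes of 1.04 ± 0.20 and 1.17 ± 0.14 in WT and 1.14 ± 0.20 and 1.01 ± 0.14 in Akr1a1 KO cells. For all 5 the stimulated libraries lay above the unstimulated ones of their genotype. The neutrophil markers moved with them, their sum being 0.218 to 0.580 CPM in the 4 unstimulated, 121 to 144 CPM in the stimulated WT and 248 to 419.7 CPM in the stimulated Akr1a1 KO libraries, with only S100a8 at 1 CPM or more; their part was not tested. The responses are set beside those of the BMDM-labelled libraries without a test, since the IFNγ dose and the table differed.

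Per kilobase, Psmb9 was in place 36 of the 36 subunits in unstimulated and place 31 in stimulated WT RAW264.7 cells, and Psme2 went from place 33 to 6. The ratio Psmb8/Psmb5 rose 1.83-fold in WT and 2.07-fold in Akr1a1 KO cells, Psmb9/Psmb6 4.66-fold and 7.03-fold, and Psmb10/Psmb7 3.05-fold and 3.14-fold. Psmb9/Psmb6 was 0.0478 to 0.0541 in the unstimulated WT and 0.0277 to 0.0300 in the unstimulated Akr1a1 KO libraries, and the stimulated genotypes overlapped for all 3 ratios.

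Of the constitutive members 6 rose and 4 fell in WT RAW264.7 cells (median 0.029), and 4 rose and 7 fell in Akr1a1 KO cells (median -0.016), where the medians over all genes were -0.028 and 0.024. The shares called, 32.3% in WT and 35.5% in Akr1a1 KO cells, were below the 37.7% and 39.2% of all genes. With library totals the counts were 3 higher and 9 lower in both genotypes, where 14.3% of all genes were higher and 25.5% lower in WT and 16.6% higher and 23.1% lower in Akr1a1 KO cells, and no called member changed sign. Psmd8 rose from 222 and 271 to 448 and 521 CPM in WT and from 289.7 and 262 to 497 and 531 CPM in Akr1a1 KO cells, and Psmd11 rose by 0.91 and 0.87 on the log2 scale, so these lid subunits rose in both experiments. Psma6 rose as well, by 0.73 and 0.64, and Psmb2, Psmb3 and Psmc3 fell in both genotypes, Psmc3 by 0.57 and by 0.74. The core chaperones fell here too, 4 of 4 in WT and 3 of 4 in Akr1a1 KO cells, with Psmg1 at 20.0 and 24.5 CPM before and 8.26 and 10.4 CPM after stimulation in WT. Without WT unstimulated replicate A 15 members were called in the WT response, without either unstimulated Akr1a1 KO replicate 16 in the KO response, and without both libraries of conflicting title 13 and 15, the 5 inducible members among them in each genotype.

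Akr1a1 KO and WT RAW264.7 cells were not called different in these genes, apart from Psma8. In stimulated cells 1 of 50 members was called, lower in KO, against 0.286% of all genes, 0.0869% higher and 0.199% lower, and without stimulation 1 was called, also lower, against 0.583%, 0.230% higher and 0.353% lower. The inducible members had log2 fold changes from -0.28 to 0.031 in stimulated and from -0.64 to -0.036 in unstimulated cells. The 2 lowest of the 5 without stimulation, Psmb9 and Psme2, were not called (log2 fold change -0.64 ± 0.24 and -0.52 ± 0.19, edgeR BH-adjusted p = 0.530 and 0.502). Without both libraries of conflicting title the unstimulated median of the 5 was 0.19, against -0.13 with all libraries. The macrophage markers summed to 8677 to 9527 CPM in stimulated WT and 2991 to 6581 CPM in stimulated Akr1a1 KO cells. The interaction called 0 of 50 members with edgeR, 0 with DESeq2, and 0 at an unadjusted p under 0.05, against 0.0204% of all genes at the adjusted threshold (0.00511% higher, 0.0153% lower) and 5.51% at the unadjusted one. With 2 libraries per group the inducible interactions had standard errors of 0.20 to 0.33 on the log2 scale; that of Psmb9, for example, was 0.36 ± 0.33. With a log2 fold change of more than 1 required, 9 and 10 members were called in the WT and Akr1a1 KO responses, against 24.4% and 26.2% of all genes, and the counts between the genotypes were as before, against 0.276% in stimulated cells, 0.537% without stimulation and 0.0204% in the interaction.

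The tissue form Psma8, the testis alpha subunit, was present in WT and absent from the counts of Akr1a1 KO cells. It was at 21.9 and 20.0 CPM in unstimulated and 10.4 and 8.16 CPM in stimulated WT RAW264.7 cells, and at 0 counts in all 4 Akr1a1 KO libraries, where 3 counts would be 0.104 to 0.236 CPM. Measured against that floor per library, it was at least 123-fold lower without and at least 47.7-fold lower with stimulation (edgeR BH-adjusted p = 9.36e-04 and 0.00499). The call in stimulated cells was lost when only these groups were fitted (adjusted p = 0.0668) or without Akr1a1 KO stimulated replicate A (adjusted p = 0.0502), and that without stimulation when both libraries of conflicting title were left out (adjusted p = 0.103). Its neighbours in the table were not at 0 in the same libraries: Ss18 was at 58.7 to 92.8 CPM and Taf4b at 10.9 to 31.3 CPM in Akr1a1 KO cells. In the BMDM-labelled libraries Psma8 was at 13.7, 12.5 and 12.7 CPM in unstimulated and 5.54, 6.28 and 6.24 CPM in stimulated WT libraries, and in iNOS KO libraries at 10.5, 12.3 and 10.5 CPM before and 12.0, 8.80 and 11.3 CPM after stimulation, where stimulation changed it less (interaction 1.05 ± 0.18, edgeR BH-adjusted p = 1.77e-04).

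Psmc3ip, a meiotic recombination factor taken in by its symbol, showed the largest change of all members in WT libraries. It was at 14.6, 16.8 and 15.1 CPM in unstimulated and 0.554, 1.28 and 0.971 CPM in stimulated WT libraries, but in iNOS KO libraries at 14.1, 14.3 and 14.1 CPM before and 12.1, 12.2 and 10.7 CPM after stimulation. The stimulated WT libraries were far below the other 9. It fell by 4.03 on the log2 scale in WT (SE 0.18), was not called in iNOS KO (-0.29 ± 0.12, edgeR BH-adjusted p = 0.0584), and the interaction was 3.75 ± 0.22 (adjusted p = 1.03e-09). In RAW264.7 cells it fell in both genotypes, from 23.7 and 27.6 to 1.78 and 1.52 CPM in WT and from 21.5 and 19.7 to 1.00 and 1.13 CPM in Akr1a1 KO cells. It overlaps Mlx by 385 bases on the other strand, and Mlx reached 78.1 CPM in the BMDM-labelled libraries. Psme3ip1, named for its partner Psme3, rose in both genotypes of both experiments, by 0.59 and 0.60 in the BMDM-labelled libraries and by 0.52 and 0.52 in RAW264.7 cells.

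**Figure D5:**
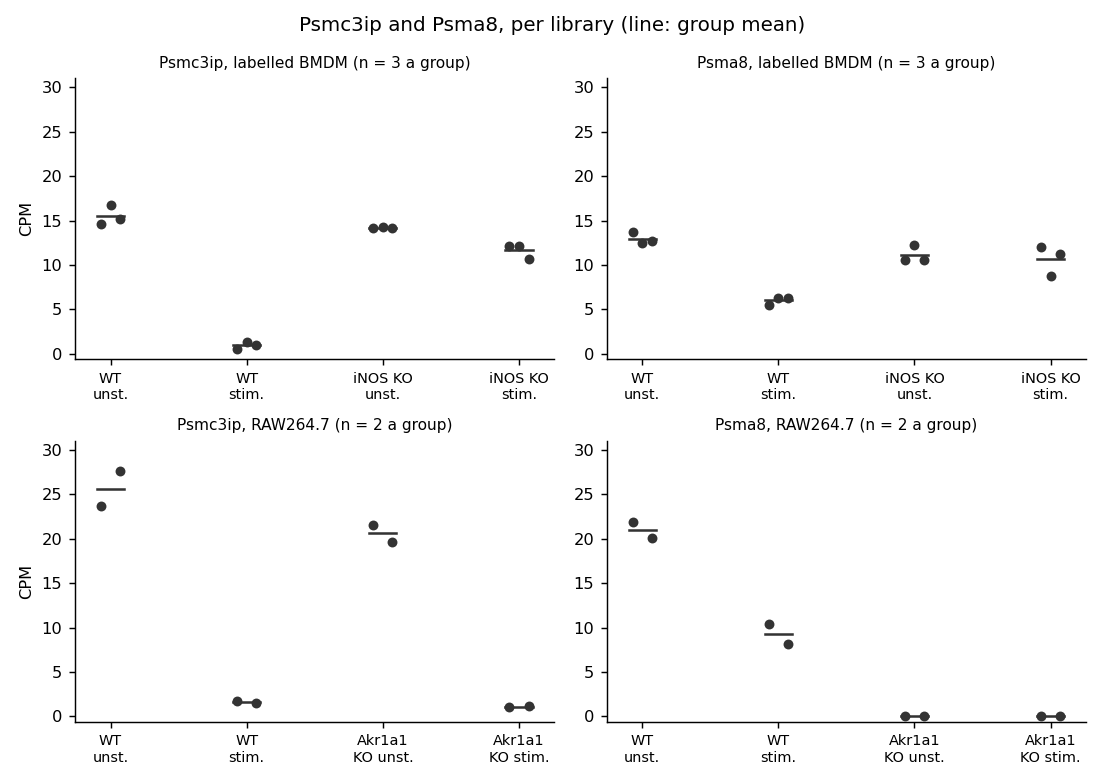
CPM per library of Psma8 and Psmc3ip in the 4 groups of each experiment. Psma8 is at 0 in all 4 Akr1a1 KO libraries, and Psmc3ip is at 0.554 to 1.28 CPM in stimulated WT BMDM-labelled libraries against 10.7 to 12.2 CPM in stimulated iNOS KO libraries.

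Other genes around the proteasome were counted by direction. Of 26 other genes of the pathway, namely further subunits, ubiquitin genes, shuttles, assembly and transcription factors, 10 rose and 12 fell in WT and 10 rose and 8 fell in iNOS KO BMDM-labelled libraries, and between the stimulated genotypes 11 were higher and 11 lower in the iNOS KO. These are 22, 18 and 22 of 26 called, where 60.9%, 51.9% and 48.4% of all genes were called. Their median difference between the stimulated genotypes was -0.064, against 0.48 for the constitutive members. Adrm1 and Sem1, subunits whose symbols lack the prefix, resembled the constitutive members, with log2 fold changes of 0.64 and 0.66 in iNOS KO and 0.15 and 0.12, neither called, in WT libraries. Pomp, the chaperone that completes core assembly, rose by 1.48 and 1.33 in WT and iNOS KO BMDM-labelled libraries and by 0.52 and 0.56 in WT and Akr1a1 KO RAW264.7 cells. Nfe2l1, the factor NRF1 that drives proteasome genes, differed between the stimulated genotypes, with less in the iNOS KO (-0.31 ± 0.06, edgeR BH-adjusted p = 3.34e-04), as did Ddi2, the protease that activates it (-0.74 ± 0.079, adjusted p = 6.27e-07). In RAW264.7 cells 9 of the 26 rose and 6 fell in each genotype, where 37.7% and 39.2% of all genes were called, and none was called between the genotypes.

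The values of 3 genes that act with the inducible members were set beside theirs. Irf1, a transcription factor induced by interferon, and Tap1 and Tap2, the peptide transporter, all rose in both genotypes of both experiments. In stimulated iNOS KO libraries, however, they were lower than in stimulated WT libraries, by log2 fold changes of -0.79, -0.32 and -0.48 (edgeR BH-adjusted p = 5.54e-07, 0.00152 and 3.72e-05), as were 24.2% of all genes tested, whereas the 5 inducible members were higher by 0.30 to 0.77. Psmb9 and Tap1, whose promoter windows share 275 bases, thus differed in opposite directions, at 0.30 and -0.32. In RAW264.7 cells none of these 3 was called between the genotypes.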

How the data were processed

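Bulk RNA-seq was analysed in 20 libraries, 12 labelled BMDM and 8 of RAW264.7 cells. According to the study's methods and the submitters' processing notes (CASAVA, STAR, mm10), the authors removed adaptor, uncertain and low-quality reads, aligned the rest and counted reads per gene; the deposited tables hold these raw counts, without normalization. The counter, its strand setting and the annotation are not given in the sources used here, and no member's listed start equals that in the GRCm38 annotation (0 of 51), so positions are those of the tables.

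Tests covered the genes whose counts summed to 10 or more over a table. Counts were scaled by TMM and fitted with 1 mean per group by edgeR 4.0.16 (R 4.3.3), with 2-sided quasi-likelihood F tests and Benjamini-Hochberg adjustment over all genes tested; a call is an adjusted p under 0.05. The members and lists were chosen with earlier results of these data known. Named genes are the 5 inducible members, their 3 counterparts and, in each comparison, the 3 called members with the highest and the 3 with the lowest log2 fold change; further members named were chosen after their values were seen. CPM per kb divides by the gene length in the table. Figures were drawn with matplotlib 3.10.9 (Python 3.11.15). Scripts were tested on simulated counts.

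Alternatives were DESeq2 1.42.0, DESeq2 size factors, library totals, other filters, a fit of the compared groups, the replicate letter as a block, a log2 limit of 1, each library left out, and both libraries of conflicting title left out. No replicates agreed within sampling noise. Promoter windows and their build are from RefSeq. One gene of the interferon list is not reported here.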

Additional observations from a re-analysis of the deposited data

Results flagged for a closer look

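For 20 of the members named by the rule, the response to stimulation differed between iNOS KO and WT in the BMDM-labelled libraries by the interaction test (edgeR's quasi-likelihood test, Benjamini-Hochberg adjusted over all genes). The rule takes called members with the most extreme changes, in this comparison too, so 20 is not a rate. Over all 50 members tested 80.0% were called in the interaction, against 35.4% of all genes. Values are log2 response in iNOS KO minus that in WT. Among the inducible members it was 0.76 for Psmb8 (adjusted p = 5.56e-05), 0.57 for Psmb9 (adjusted p = 0.00210), 0.98 for Psmb10 (adjusted p = 3.49e-06) and 0.88 for Psme1 (adjusted p = 3.62e-06). For their constitutive counterparts it was 0.83 for Psmb5 (adjusted p = 6.36e-05), 0.65 for Psmb6 (adjusted p = 5.46e-05) and 0.46 for Psmb7 (adjusted p = 8.49e-04). Other subunits gave 1.18 for Psmc3 (adjusted p = 2.51e-07), 0.79 for Psma5 (adjusted p = 6.70e-06), 0.39 for Psmd13 (adjusted p = 0.00436), 0.37 for Psmd7 (adjusted p = 0.00538) and 0.33 for Psma1 (adjusted p = 0.0355). The chaperones Psmg1, Psmg2 and Psmg4 gave 1.20, 0.51 and 1.09 (adjusted p = 2.29e-06, 0.00484 and 1.57e-05), the activators Psme2b and Psme3 0.63 and 0.44 (adjusted p = 0.0155 and 8.76e-04) and the testis form Psma8 1.05 (adjusted p = 1.77e-04). Psmc3ip, which is no subunit, gave 3.75 (adjusted p = 1.03e-09), and Psmd5, the only one in the other direction, -0.28 (adjusted p = 0.0212). Sums of the macrophage markers were 6724 to 7107 CPM without and 6203 to 6947 CPM with stimulation in WT libraries. In iNOS KO libraries they were 4549 to 4813 CPM without and 9490 to 9889 CPM with stimulation. Taken singly, the 7 macrophage markers went both ways. Between stimulated genotypes 2 were called higher and 3 lower in iNOS KO (median log2 fold change -0.069). Upon stimulation 5 rose and 2 fell in WT, and 6 rose and 1 fell in iNOS KO libraries. The interaction called 4 higher and 0 lower. Fibroblast markers moved as given above. The part of both marker lists in the differences was not tested. Groups of 2 and 3 libraries were too small for Dixon's test of an outlying library, which was not run; iNOS KO stimulated replicate B, which stood apart, is described in the report.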

How the results depend on the processing

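Among the recomputed values of the genes named by the rule, each in the comparisons that name it, 1735 kept their direction and side of the threshold, 35 lost and 3 gained the call, and 6 reversed. Among these, library totals reversed Psmb6 (-0.071) and Psmb7 (-0.17) in the WT response and Psmb5 (-0.055) in the iNOS KO response, and the uncalled difference of Psme2 between unstimulated genotypes (0.030) reversed without WT replicate A (-0.16), WT replicate B (-0.030) or iNOS KO replicate C (-0.14), in a range of -0.16 to 0.32 with 1 library left out. Over all members called, library totals changed the sign of 8 in the WT and 10 in the iNOS KO response, as listed in the report for the constitutive ones, beside Psmd5 and Psmg4. In the BMDM-labelled libraries the number of members called was 40 in the WT response (39 to 43 with 1 library left out, 10 with a log2 limit of 1), 43 in the iNOS KO response (40 to 47, and 9), 42 between stimulated genotypes (39 to 43, and 4), 4 between unstimulated genotypes (2 to 7, and 0) and 40 in the interaction (37 to 40, and 7). In RAW264.7 cells it was 24 in WT (15 to 23, and 9; 13 without both libraries of conflicting title), 26 in Akr1a1 KO (16 to 29, and 10; 15), 1 between stimulated genotypes (0 to 1; 0 when only these groups were fitted) and 1 between unstimulated genotypes (1 in each; 2 with no filter on counts and 0 without both libraries of conflicting title). The interaction there had 0 calls in each setting. Where a group was left with 1 library, it was assumed to vary like the others. The sources do not say that a replicate letter marks the same culture or clone across groups. Deviations of same-letter libraries from their group means correlated from -0.38 to 0.38 in the BMDM-labelled libraries; in RAW264.7 cells they correlated at 0.43 between the states of WT and 0.21 between those of Akr1a1 KO cells, and from -0.12 to -0.0060 between the genotypes. The replicate letter as a block changed no count of calls by over 1.5 times; 41 and 43 members were called in the WT and iNOS KO responses, 42, 4 and 40 in the stimulated, unstimulated and interaction comparisons, and 25, 26, 1, 1 and 0 in the RAW264.7 comparisons in the same order; with the RAW264.7 letters crossed, an alternative added after the data were seen, 24, 27, 1, 1 and 0 were called, and with the letter as a clone within each genotype, added likewise, 26 and 29 in the responses and 0 in the interaction. The direction of the constitutive members upon stimulation is limited by the scaling in both genotypes of the BMDM-labelled libraries. RAW264.7 comparisons are limited by 2 libraries per group.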

Other observations

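Psmb4 and Psmd4, which the table lists close together on chromosome 3, differed between the WT RAW264.7 replicates in both states; this was noticed after the values were seen. Psmb4 was at 147 and 258 CPM in replicates A and B of unstimulated WT and at 151 and 269 CPM in those of stimulated WT cells, and Psmd4 at 96.3 and 161 and 102 and 179 CPM. The log2 ratio of B to A was 0.82 and 0.74 without and 0.83 and 0.80 with stimulation, where the median over 7516 genes was 0.079 and -0.044. Of 29 neighbouring genes 29 were higher in B without and 27 with stimulation (medians 0.63 and 0.44), against 5 and 8 of 29 in Akr1a1 KO cells. Of the 7516 genes, 67.7% without and 44.2% with stimulation were higher in B in WT cells. In Akr1a1 KO cells these shares were 57.8% and 51.9%. What sets these replicates apart was not tested. The log2 response of these subunits in WT cells was 0.053 ± 0.31 for Psmb4 and 0.12 ± 0.29 for Psmd4.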
